A study of Mus musculus with 9 samples.

Results

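Interferon-stimulated genes are genes whose transcripts accumulate when a cell senses interferon. The 9 described here, Oas2, Oasl2, Irf7, Irf9, Ifit1, Ifit3, Isg15, Ifi44 and Bst2, were chosen by name from the 49585 rows of a bulk RNA-seq table of the mouse heart. The choice was made with earlier results of these data known. All 9 were found by their gene symbols, and all 9 were among the 12670 genes that passed the filter on low counts. Type I interferons bind the receptor formed by Ifnar1 and Ifnar2, and the kinases Jak1 and Tyk2 then activate a transcription factor complex that holds Irf9 and binds the interferon-stimulated response element in the promoters of these genes. Irf7 drives further interferon production, while Oas2, Oasl2, Ifit1, Ifit3, Isg15 and Bst2 encode antiviral effectors that act on viral RNA, on protein modification or at the cell surface. In the mouse heart, interferon-stimulated genes are known to be induced in infiltrating macrophages after infarction, and endothelial cells, fibroblasts and cardiomyocytes can respond to interferon as well.

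RNA was measured in the whole ventricle, with atria and valves removed, of male mice on a mixed C57BL/6 and ICR background, 15 weeks into the experiment, in 3 groups of 3 libraries. TTg_HF mice carried Tcf21iCre, R26 tdTomato and the MGTH2A transgene, and were fed a diet in which fat supplied 60% of the calories, with L-NAME, which blocks nitric oxide synthases, at 1 g/L in the water, for 15 weeks. Ctrl_HF mice carried Tcf21iCre and R26 tdTomato without the transgene and were given the same feed and L-NAME, a combination used to model heart failure with preserved ejection fraction. Ctrl mice carried Tcf21iCre and R26 tdTomato and ate normal chow. All 3 groups had tamoxifen in week 5 (5 days, 2 mg daily), which activates the Cre. The Tcf21 gene that drives it marks the fibroblast lineage, so recombination was directed at a part of the cells in the tissue measured. MGTH2A is known to encode Mef2c, Gata4, Tbx5 and Hand2 joined in 1 transcript. Transgenic mice on chow are not among the groups analysed here, and TTg_HF thus differed from Ctrl in diet, L-NAME and genotype at once. The labels number the replicates without saying that each is a separate animal, so the p-values measure the spread between these libraries.

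Total counts ranged from 6743109 to 9364336 per library, and levels are given in CPM, counts divided by the TMM-scaled library size, in which a single count is worth 0.105 to 0.147. Tbx5, one of the transgene's factors, stood at 103, 190 and 140 CPM in TTg_HF, at 23.96, 20.2 and 27.1 CPM in Ctrl_HF and at 26.8, 28.1 and 32.0 CPM in Ctrl, so that all TTg_HF libraries were above all others. Markers of cardiomyocytes were abundant in every library and summed over 10 genes to 88764 to 90529 CPM in TTg_HF, 92314 to 93927 CPM in Ctrl_HF and 98059 to 109414 CPM in Ctrl. Ctrl_HF replicate 2 stood apart on the first principal component of all tested genes, which held 31.2% of the variance, at 48.5 against -23.5 to 23.5 for the other 8 libraries. Ctrl_HF replicate 1, at 5.12, did not stand apart there. On the second component it was the lowest library, at -25.7, with the others at -18.8 to 20.5. Replicates 2 and 3 of its group stood at 12.1 and 3.14 on that component. Within the group, 8 members were highest in Ctrl_HF replicate 1. The members' differences that involve Ctrl_HF are also given without replicate 1 or replicate 2 of that group. Replicate 1 was picked with the members' values known.

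The promoters of 4 members carry the letters of the response element close to the start of transcription, and their sequences are shown here because this element is the one that the interferon-activated complex binds. RefSeq promoter windows (build GRCm38.p6, 250 bases before to 50 after the start) were found for 8 of the 9 members, all but Oas2, and were searched on both strands for the core of the response element, GAAA followed after any 2 bases by another GAAA, with overlapping matches counted. The 250 bases before the start are printed 5′ to 3′ in the direction of the gene, and capitals mark every base covered by a match in either orientation.
Ifit1 (chr19:34640639-34640888, + strand): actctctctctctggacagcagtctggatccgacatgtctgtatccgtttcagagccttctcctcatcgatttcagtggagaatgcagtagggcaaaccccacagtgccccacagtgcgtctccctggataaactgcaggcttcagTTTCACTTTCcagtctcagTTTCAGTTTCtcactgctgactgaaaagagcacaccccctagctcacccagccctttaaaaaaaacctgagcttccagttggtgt
Ifit3 (chr19:34583279-34583528, + strand): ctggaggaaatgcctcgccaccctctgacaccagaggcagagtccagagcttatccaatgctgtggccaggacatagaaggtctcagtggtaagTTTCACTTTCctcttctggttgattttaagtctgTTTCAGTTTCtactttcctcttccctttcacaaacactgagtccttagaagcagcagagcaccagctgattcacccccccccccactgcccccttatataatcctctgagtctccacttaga
Isg15 (chr4:156200819-156201068, - strand): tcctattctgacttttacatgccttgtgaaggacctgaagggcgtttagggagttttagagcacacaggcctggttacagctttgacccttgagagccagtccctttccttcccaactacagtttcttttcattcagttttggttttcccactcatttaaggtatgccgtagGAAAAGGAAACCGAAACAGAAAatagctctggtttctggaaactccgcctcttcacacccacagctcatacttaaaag
Bst2 (chr8:71537473-71537722, - strand): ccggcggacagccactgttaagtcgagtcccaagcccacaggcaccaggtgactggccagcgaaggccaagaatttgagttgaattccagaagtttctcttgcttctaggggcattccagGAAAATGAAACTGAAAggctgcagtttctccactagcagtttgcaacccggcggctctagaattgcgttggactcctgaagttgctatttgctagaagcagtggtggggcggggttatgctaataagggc

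Ifit1 and Ifit3 each held the same pair of matches, TTTCACTTTC followed by TTTCAGTTTC, which begin 104 and 85 bases before the start in Ifit1 and 156 and 122 bases before it in Ifit3. In Isg15 there were 3 matches that overlap into 1 run, beginning 78, 72 and 66 bases before the start. Bst2 had 2 overlapping matches, 130 and 124 bases before the start. These letters were not in the windows of Oasl2, Irf7, Irf9 or Ifi44, where Irf9 has a window for each of 2 starts. The search took only this exact spelling, and the Ifi44 window holds a close variant that it excludes. A window without a match is thus not shown to lack the element. Of all 32851 RefSeq windows 3.44% held a match, as did 3.07% of the 12471 windows of tested genes. A match is a description of the letters and not a measurement of binding.

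Of the 9 genes, Oas2 alone passed the test against chow hearts, and it was higher both in TTg_HF and in Ctrl_HF. The other 8 members were measured at 1.17 to 3.40 times their Ctrl mean in TTg_HF and at 1.02 to 2.67 times in Ctrl_HF on the fitted scale, and none passed the test. Between TTg_HF and Ctrl_HF no member passed. Of all tested genes 0.0868% passed between TTg_HF and Ctrl_HF, 0.466% between TTg_HF and Ctrl, and 3.61% between Ctrl_HF and Ctrl. The Ctrl_HF libraries were far apart for most members, with replicate 1 high and replicate 2 low, while the 3 TTg_HF libraries lay close together. Summed over the 9 genes, TTg_HF libraries held 78.6, 73.6 and 75.4 CPM, Ctrl_HF libraries 97.6, 46.2 and 64.3 CPM, and Ctrl libraries 33.5, 40.3 and 55.6 CPM. The means were 75.8 ± 2.53 CPM in TTg_HF, 69.4 ± 26.1 CPM in Ctrl_HF and 43.1 ± 11.3 CPM in Ctrl (SD, n = 3 each).

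**Figure D1:**
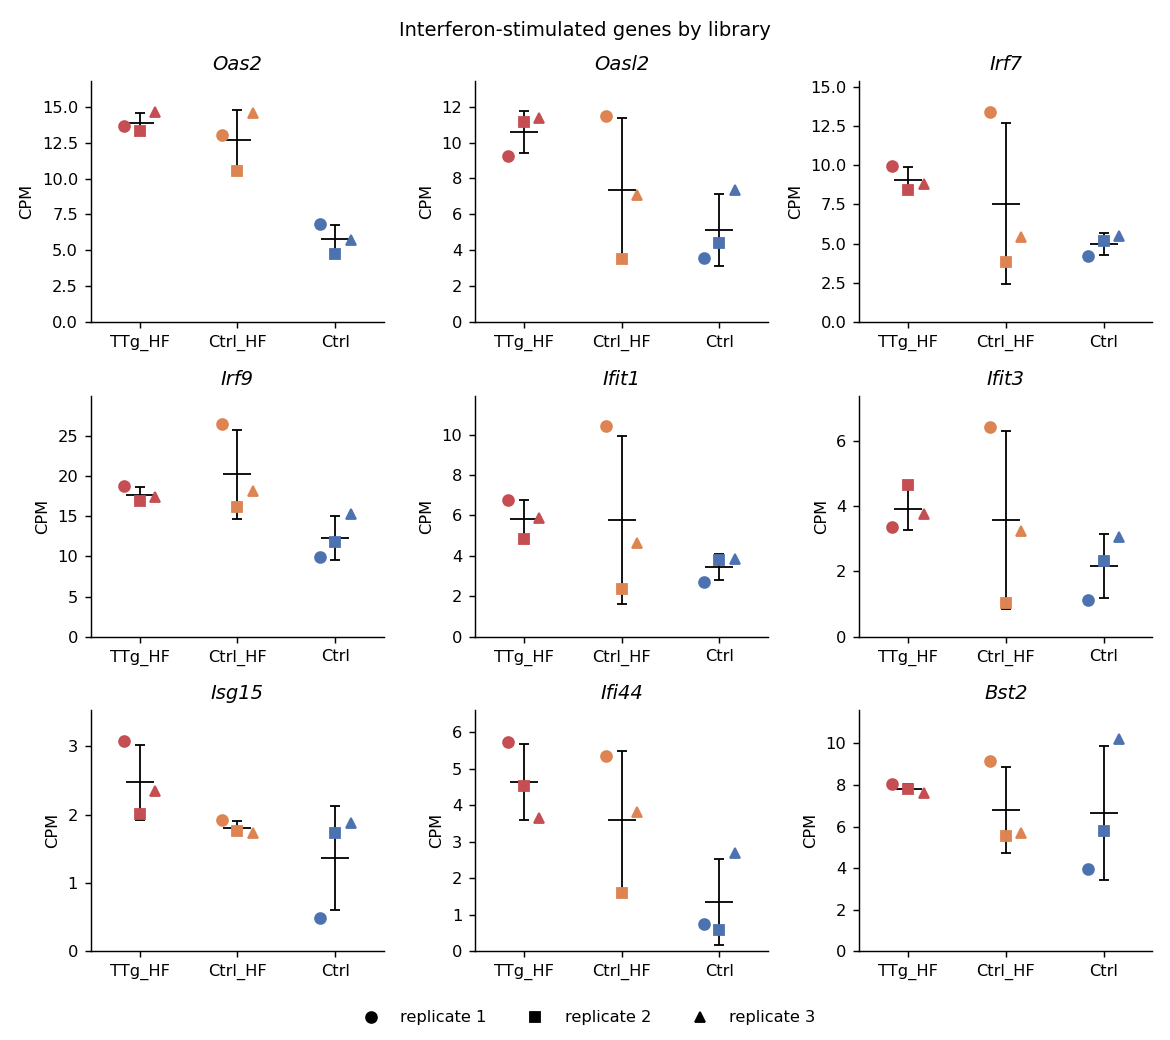
Level of each of the 9 genes in CPM (y axis, from 0) in the 3 libraries of TTg_HF, Ctrl_HF and Ctrl (x axis), where symbols mark the replicate number and the black bars the mean and SD of 3 libraries. Oas2 lies at 10.5 CPM or more in all libraries of TTg_HF and Ctrl_HF and at 6.80 CPM or less in Ctrl, while Ctrl_HF replicate 1 is the highest of the 9 libraries for 5 genes.

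Oas2 encodes an oligoadenylate synthetase, an enzyme that on binding double-stranded RNA makes the messenger that activates RNase L. It lies at chr5:120730333-120749853 on the minus strand (GRCm38). Oas2 had 13.6, 13.3 and 14.7 CPM in TTg_HF, 13.01, 10.5 and 14.6 CPM in Ctrl_HF, and 6.80, 4.74 and 5.75 CPM in Ctrl. The TTg_HF and Ctrl_HF libraries overlapped, and every one of them was above every Ctrl library. Oas2 rose in Ctrl_HF against Ctrl by 1.15 on the log2 scale (SE 0.18, 95% interval 0.75 to 1.54, adjusted p = 0.00996), a fold of 2.21. The rise was 1.27 in TTg_HF against Ctrl (SE 0.18, 95% interval 0.87 to 1.66, adjusted p = 0.0109), a fold of 2.41. TTg_HF and Ctrl_HF differed by 0.12 (95% interval -0.25 to 0.49, adjusted p = 0.792).

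The call of Oas2 in Ctrl_HF against Ctrl held in 15 of 16 alternative settings and missed the threshold without Ctrl replicate 2 (adjusted p = 0.0508). Without Ctrl_HF replicate 1 the difference was 1.14, and without Ctrl_HF replicate 2 it was 1.27, both past the threshold. The call in TTg_HF against Ctrl held in 12 of 16 settings and missed the threshold without Ctrl replicate 2, Ctrl replicate 3, TTg_HF replicate 2 or TTg_HF replicate 3, with adjusted p of 0.0586, 0.0601, 0.0506 and 0.0590.

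Oasl2 encodes a relative of the OAS enzymes that carries ubiquitin-like repeats. It lies at chr5:114896936-114912234 on the plus strand. Oasl2 had 9.23, 11.2 and 11.4 CPM in TTg_HF, 11.5, 3.51 and 7.07 CPM in Ctrl_HF, and 3.58, 4.39 and 7.39 CPM in Ctrl. All TTg_HF libraries exceeded all Ctrl libraries, and the Ctrl_HF libraries spanned both groups. The difference was 1.05 in TTg_HF against Ctrl (SE 0.38, 95% interval 0.20 to 1.89, adjusted p = 0.395) and 0.52 in Ctrl_HF against Ctrl (SE 0.39, adjusted p = 0.494). It was 0.52 in TTg_HF against Ctrl_HF (95% interval -0.30 to 1.35, adjusted p = 0.555). Oasl2 without Ctrl_HF replicate 1 differed by 0.07 in Ctrl_HF against Ctrl and by 0.98 in TTg_HF against Ctrl_HF, and without Ctrl_HF replicate 2 by 0.85 and 0.20.

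Irf7 is the transcription factor that amplifies the production of interferon alpha, and its own transcript is induced by interferon. It lies at chr7:141262706-141266481 on the minus strand and shares 45 bases with Phrf1 on the other strand. Irf7 had 9.97, 8.43 and 8.80 CPM in TTg_HF, 13.4, 3.80 and 5.44 CPM in Ctrl_HF, and 4.202, 5.20 and 5.51 CPM in Ctrl. TTg_HF libraries were all above the Ctrl libraries, and in Ctrl_HF replicate 1 was the highest and replicate 2 the lowest of all 9 libraries. The difference was 0.86 in TTg_HF against Ctrl (SE 0.38, adjusted p = 0.530) and 0.60 in Ctrl_HF against Ctrl (SE 0.39, adjusted p = 0.428). With only TTg_HF and Ctrl in the edgeR fit, Irf7 had an adjusted p of 0.0599, which did not pass. TTg_HF and Ctrl_HF differed by 0.26 (95% interval -0.57 to 1.09, adjusted p = 0.798).

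For Irf7, leaving out 1 library made a call. Without Ctrl_HF replicate 1, TTg_HF stood above Ctrl_HF by 0.95 with an adjusted p of 0.0366, and the difference of Ctrl_HF from Ctrl was -0.09 with an adjusted p of 0.855. Without Ctrl_HF replicate 2 the 2 differences were -0.05 and 0.91. Ctrl_HF replicate 1 held the highest Irf7 level of all 9 libraries. Its omission raised the calls among all genes in TTg_HF against Ctrl_HF from 11 of 12670 to 665 of 12892. Over the 16 alternatives the adjusted p of TTg_HF against Ctrl_HF ranged from 0.0366 to 0.984.

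Irf9 gives the complex activated by type I interferon its DNA binding specificity. It lies at chr14:55603571-55610030 on the plus strand, and 123 of its bases overlap Rnf31 on the same strand, so some reads may belong to that gene. Irf9 had 18.8, 16.9 and 17.4 CPM in TTg_HF, 26.4, 16.1 and 18.1 CPM in Ctrl_HF, and 9.89, 11.8 and 15.2 CPM in Ctrl. Every TTg_HF and Ctrl_HF library was above every Ctrl library, by little over the highest of them. The difference was 0.71 in Ctrl_HF against Ctrl (SE 0.20, 95% interval 0.27 to 1.16), which missed the threshold after adjustment (adjusted p = 0.0802) and passed it with DESeq2 (adjusted p = 0.0391). It was 0.52 in TTg_HF against Ctrl (SE 0.20, adjusted p = 0.437), and -0.20 in TTg_HF against Ctrl_HF (95% interval -0.63 to 0.24, adjusted p = 0.695). Irf9 without Ctrl_HF replicate 1 differed by 0.48 in Ctrl_HF against Ctrl and by 0.04 in TTg_HF against Ctrl_HF, and without Ctrl_HF replicate 2 by 0.85 and -0.33.

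Stat2, which binds Irf9 in this complex, is given beside it, although it was chosen after its values were seen. Stat2 had 18.2, 21.2 and 20.8 CPM in TTg_HF, 27.1, 15.4 and 19.3 CPM in Ctrl_HF, and 13.2, 16.5 and 16.3 CPM in Ctrl. It passed in no comparison, and Ctrl_HF replicate 1 was the highest and Ctrl_HF replicate 2 the lowest library of its group.

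Ifit1 encodes a protein with tetratricopeptide repeats that binds foreign RNA lacking the methylation of host caps, and Ifit3 a related protein of the same cluster on chromosome 19. Ifit1 lies at chr19:34640871-34650009 and Ifit3 at chr19:34583531-34588731, both on the plus strand, and near-identical neighbours such as Ifit3b may have shared reads with them in the authors' counting. Ifit1 had 6.74, 4.85 and 5.86 CPM in TTg_HF, 10.4, 2.34 and 4.63 CPM in Ctrl_HF, and 2.72, 3.81 and 3.87 CPM in Ctrl. Ifit3 had 3.37, 4.64 and 3.75 CPM in TTg_HF, 6.44, 1.02 and 3.24 CPM in Ctrl_HF, and 1.11, 2.31 and 3.05 CPM in Ctrl. In both genes all TTg_HF libraries were above all Ctrl libraries, and the Ctrl_HF libraries covered the whole range, from the lowest to the highest of the 9.

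For Ifit3 the lowest Ctrl_HF library rested on 7 counts and the lowest Ctrl library on 9. Ifit1 differed by 0.73 in TTg_HF against Ctrl (SE 0.44, adjusted p = 0.680), by 0.74 in Ctrl_HF against Ctrl (SE 0.44, adjusted p = 0.386) and by -0.0029 in TTg_HF against Ctrl_HF (95% interval -0.94 to 0.93, adjusted p = 0.998). Ifit3 differed by 0.86 in TTg_HF against Ctrl (SE 0.54, adjusted p = 0.694), by 0.72 in Ctrl_HF against Ctrl (SE 0.55, adjusted p = 0.501) and by 0.14 in TTg_HF against Ctrl_HF (95% interval -1.01 to 1.29, adjusted p = 0.929). The intervals of both genes admit differences between TTg_HF and Ctrl_HF in either direction. Ifit1 and Ifit3 without Ctrl_HF replicate 1 each differed by 0.03 in Ctrl_HF against Ctrl, and by 0.70 and 0.84 in TTg_HF against Ctrl_HF. Without Ctrl_HF replicate 2 the differences in Ctrl_HF against Ctrl were 1.103 for Ifit1 and 1.15 for Ifit3, and those in TTg_HF against Ctrl_HF were -0.37 and -0.28.

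Isg15 encodes a ubiquitin-like protein that is attached to other proteins and is also secreted. It lies at chr4:156199424-156200818 on the minus strand. Isg15 had 3.08, 2.00 and 2.35 CPM in TTg_HF, 1.92, 1.75 and 1.74 CPM in Ctrl_HF, and 0.494, 1.73 and 1.88 CPM in Ctrl. TTg_HF libraries were above all others, by a narrow margin, and Ctrl replicate 1 was low. The counts behind these levels were 21, 19 and 20 in TTg_HF, 14, 12 and 15 in Ctrl_HF, and 4, 15 and 16 in Ctrl, so these levels carry a large counting error. Isg15 differed by 0.82 in TTg_HF against Ctrl (SE 0.41, adjusted p = 0.589), by 0.44 in TTg_HF against Ctrl_HF (SE 0.40, adjusted p = 0.656) and by 0.38 in Ctrl_HF against Ctrl (SE 0.43, adjusted p = 0.663). Without Ctrl replicate 1, Isg15 differed by 0.44 in TTg_HF against Ctrl and by 0.0036 in Ctrl_HF against Ctrl. Without Ctrl_HF replicate 1 or replicate 2, it differed by 0.34 or 0.41 in Ctrl_HF against Ctrl and by 0.48 or 0.42 in TTg_HF against Ctrl_HF.

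Ifi44 is an interferon-induced gene at chr3:151730922-151749960 on the minus strand. Ifi44 had 5.72, 4.53 and 3.64 CPM in TTg_HF, 5.34, 1.61 and 3.82 CPM in Ctrl_HF, and 0.742, 0.577 and 2.70 CPM in Ctrl, where the first and the second library held 6 and 5 counts. All TTg_HF libraries were above all Ctrl libraries, and Ctrl_HF replicate 2 was below Ctrl replicate 3. Of the 9 members Ifi44 had the largest fitted difference in both comparisons with Ctrl, 1.77 in TTg_HF (SE 0.55, 95% interval 0.53 to 2.996, adjusted p = 0.296) and 1.42 in Ctrl_HF (SE 0.57, 95% interval 0.16 to 2.68, adjusted p = 0.192). TTg_HF and Ctrl_HF differed by 0.35 (95% interval -0.76 to 1.45, adjusted p = 0.797). Ifi44 without Ctrl_HF replicate 1 differed by 1.04 in Ctrl_HF against Ctrl, below Oas2 at 1.14, and by 0.72 in TTg_HF against Ctrl_HF, and without Ctrl_HF replicate 2 by 1.76 and 0.0098. Its place was also below Oas2 in Ctrl_HF against Ctrl without Ctrl replicate 1 (1.14, with Oas2 at 1.29). Without Ctrl replicate 3, Ifi44 differed by 2.78 in TTg_HF against Ctrl and by 2.43 in Ctrl_HF against Ctrl, and none of these fits called it.

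Bst2 encodes tetherin, a membrane protein that holds budding virus particles on the cell surface, and lies at chr8:71534255-71537456 on the minus strand. Bst2 had 8.06, 7.80 and 7.62 CPM in TTg_HF, 9.17, 5.56 and 5.68 CPM in Ctrl_HF, and 3.95, 5.77 and 10.2 CPM in Ctrl. The groups overlapped in every comparison, and the Ctrl libraries alone spanned the values of both other groups. Bst2 differed by 0.23 in TTg_HF against Ctrl (SE 0.31, adjusted p = 0.899), by 0.20 in TTg_HF against Ctrl_HF (SE 0.32, adjusted p = 0.815) and by 0.03 in Ctrl_HF against Ctrl (SE 0.32, adjusted p = 0.976). Bst2 without Ctrl_HF replicate 1 differed by -0.24 in Ctrl_HF against Ctrl and by 0.48 in TTg_HF against Ctrl_HF, and without Ctrl_HF replicate 2 by 0.15 and 0.08. Without Ctrl replicate 3 it differed by 0.68 in TTg_HF against Ctrl and by 0.48 in Ctrl_HF against Ctrl.

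**Figure D2:**
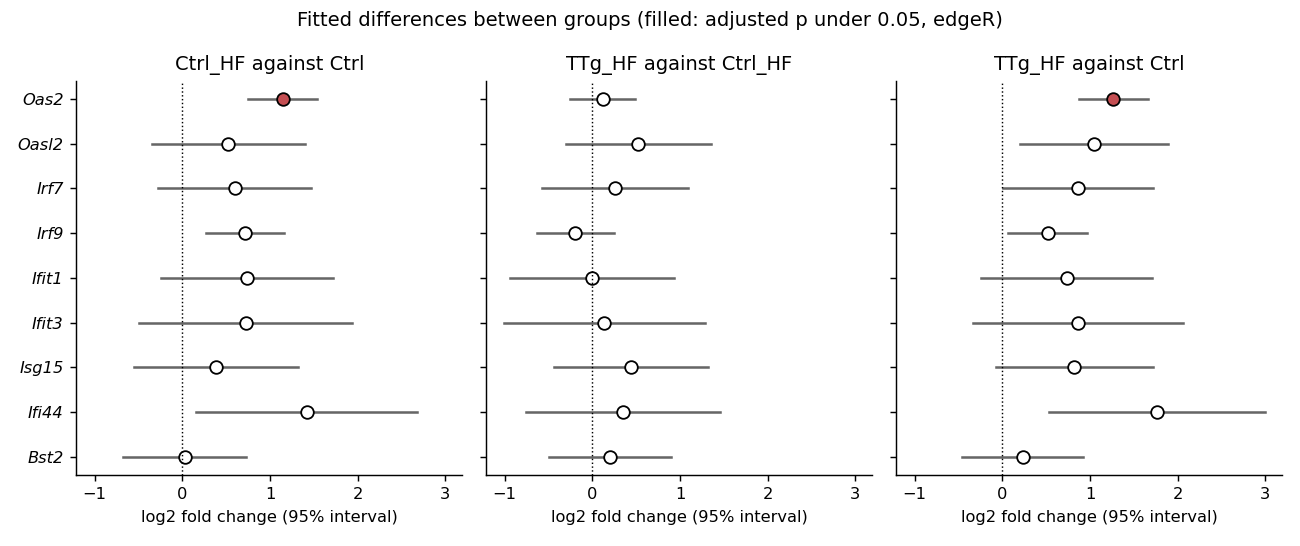
Fitted log2 fold change of each gene (x axis) with its 95% interval in the 3 comparisons, where filled points have an adjusted p under 0.05 in edgeR's quasi-likelihood test over 12670 genes. Oas2 is filled at 1.15 in Ctrl_HF against Ctrl, and also at 1.27 in TTg_HF against Ctrl, and no gene is filled in TTg_HF against Ctrl_HF.

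Counted together, 1 of the 9 members was called higher in Ctrl_HF against Ctrl, where 3.61% of all tested genes were called, 1.79% higher and 1.82% lower. The comparison of TTg_HF with Ctrl also called 1 of 9 higher, where 0.466% of all genes were called, 0.284% higher and 0.182% lower. Between TTg_HF and Ctrl_HF edgeR called 0 of 9, where it called 0.0868% of all genes, 0.0474% higher and 0.0395% lower, and 0 of the 9 had an unadjusted p under 0.05, beside 14.3% of all genes. Of the members 5 had an unadjusted p under 0.05 in TTg_HF against Ctrl, beside 9.41% of all genes, and 3 had one in Ctrl_HF against Ctrl, beside 20.6%. DESeq2 called 0 members between TTg_HF and Ctrl_HF as well. The Ctrl libraries enter both comparisons with Ctrl, so the calls of Oas2 in them are not independent.

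The libraries of TTg_HF lay wholly above those of Ctrl for 8 of the 9 members, all but Bst2, which was so for 9.23% of all tested genes. The members were chosen with earlier results of these data known, and such counts were added after the data were seen. The members also varied together (median r 0.74 over 36 pairs), so the 8 are not separate observations. In Ctrl_HF against Ctrl this held for 2 members, Oas2 and Irf9, beside 11.5% of all genes. Between TTg_HF and Ctrl_HF it held for Isg15 alone, beside 9.31% of all genes. No member lay wholly lower in any comparison, beside 9.48%, 11.8% and 9.53% of all genes in the same order. The median log2 fold change of the members was 0.86 in TTg_HF against Ctrl, with all 9 above 0, 0.71 in Ctrl_HF against Ctrl, with all 9 above 0, and 0.20 in TTg_HF against Ctrl_HF, with 7 above 0. Over all tested genes the medians were -0.0011, 0.0088 and -0.00097 in the same comparisons.

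A single library carried much of the Ctrl_HF level. Ctrl_HF replicate 1 was the highest library of its group for 8 members, all but Oas2, and the highest of the 9 libraries for 5. Ctrl_HF replicate 2 was the lowest of its group for 8 members, all but Isg15, and the lowest of the 9 libraries for 4. Without Ctrl_HF replicate 1 the members' median difference was 0.07 in Ctrl_HF against Ctrl, while it was 0.70 in TTg_HF against Ctrl_HF, and 6 members lay wholly higher in TTg_HF than in Ctrl_HF beside 18.9% of all genes. Without Ctrl_HF replicate 2 the medians of these comparisons were 0.91 and 0.00126, and 5 members lay wholly higher in Ctrl_HF than in Ctrl beside 15.9% of all genes. Leaving out the library in which most members were highest or lowest shifts their counts and medians by itself. The shares over all genes rest on no such choice, so no conclusion is drawn from setting the 2 side by side. In TTg_HF against Ctrl, leaving out single libraries kept the median between 0.59 and 1.11 and left 8 or 9 members wholly higher in TTg_HF, beside 9.2% to 16.4% of all genes.

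Levels can be compared between genes only per length, here CPM per kilobase of the union of annotated exons, which overstates the length of genes with many transcript forms. Bst2 was the highest of the 9 genes in every library, with means of 8.67 in TTg_HF, 7.53 in Ctrl_HF and 7.36 in Ctrl. Irf9 followed with 3.28 in TTg_HF, 3.75 in Ctrl_HF and 2.28 in Ctrl, and its libraries overlapped those of the next gene in each group. Below these, Isg15, Oas2, Irf7, Ifit3 and Ifit1 had means between 2.19 and 3.27 in TTg_HF, between 2.00 and 2.86 in Ctrl_HF and between 1.24 and 1.81 in Ctrl, and neighbours in this order overlapped between libraries except Oas2 and Irf7 in TTg_HF. Oas2 was the second of these 5 genes in TTg_HF, at 3.11, the first in Ctrl_HF, at 2.86, and the fourth in Ctrl, at 1.29. Oasl2 averaged 1.66 in TTg_HF, 1.15 in Ctrl_HF and 0.803 in Ctrl. Ifi44 was the lowest on average, with 0.755 in TTg_HF, 0.586 in Ctrl_HF and 0.218 in Ctrl.

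The members varied together across the libraries to different degrees. Over the 9 libraries, the Pearson correlation of log2 CPM between pairs of members ranged from 0.23 for Oas2 with Bst2 to 0.97 for Irf7 with Ifit1, with a median of 0.74 over 36 pairs. The 9 points share libraries, group structure and depth, so these are descriptions. Outside the members, the 10 genes whose log2 CPM followed the members' mean standardised level most closely over the 9 libraries were Etfa (r = 0.960), Grcc10 (0.954), Rnf213 (0.951), Lgals3bp (0.946), Rtp4 (0.945), Arrb2 (0.941), Rsad2 (0.936), Gnb1l (0.929), Dpt (0.924) and Mmrn2 (0.919). Of these 10, 4 are on the lists of interferon-responsive genes, namely Rnf213, Lgals3bp, Rtp4 and Rsad2, and Dpt is on the list of fibroblast markers.

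Upstream of the members, transcripts of the interferons themselves were at or near the limit of detection. Of 12 ligand genes, among them Ifnb1, Ifna4 and Ifng, 11 had no count in any library, which allows up to 0.316 to 0.440 CPM per library (3 counts, counting error only), and Ifnz had 1 count in Ctrl_HF replicate 1. Of 17 nucleic acid sensors and adaptors 16 were tested, and 1 was called higher in Ctrl_HF against Ctrl, beside 1.79% of all tested genes. Trim25, a ubiquitin ligase that acts on RIG-I and also conjugates Isg15, rose in Ctrl_HF against Ctrl by 0.51 (42.2, 43.3 and 46.3 CPM in TTg_HF, 50.5, 48.5 and 60.8 CPM in Ctrl_HF and 34.98, 38.6 and 39.04 CPM in Ctrl, adjusted p = 0.0279), a call that held in 10 of 16 alternatives. Myd88, the adaptor of most Toll-like receptors, had a difference of 0.84 in the same comparison (adjusted p = 0.0752). No sensor or adaptor passed in the other comparisons, in which Tlr7, an endosomal receptor for single-stranded RNA, had the lowest p, with 0.73 in TTg_HF against Ctrl_HF (adjusted p = 0.160) and 0.77 in TTg_HF against Ctrl (adjusted p = 0.167). Myd88 was next in TTg_HF against Ctrl_HF with -0.69 (adjusted p = 0.216), and Ddx58, which encodes RIG-I, in TTg_HF against Ctrl with 0.32 (adjusted p = 0.474). The median of the 16 was 0.12 in Ctrl_HF against Ctrl, 0.04 in TTg_HF against Ctrl_HF and 0.13 in TTg_HF against Ctrl.

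Of the 15 receptor and JAK-STAT genes, 2 fell and 0 rose in Ctrl_HF against Ctrl, beside 1.82% and 1.79% of all tested genes. Both encode receptor chains. Ifngr2, the second chain of the receptor for interferon gamma, had 182, 182 and 187 CPM in TTg_HF, 142, 157 and 136 CPM in Ctrl_HF, and 225, 196 and 198 CPM in Ctrl, and fell by 0.51 on the log2 scale in Ctrl_HF against Ctrl (adjusted p = 0.0120). Il10rb, a chain shared by the receptors for interferon lambda and interleukin 10, had 83.1, 82.3 and 95.6 CPM in TTg_HF, 79.1, 64.6 and 60.9 CPM in Ctrl_HF, and 98.6, 115 and 105 CPM in Ctrl, and fell by 0.64 (adjusted p = 0.0152). For both genes the Ctrl_HF libraries lay wholly below the libraries of TTg_HF and of Ctrl, and the TTg_HF libraries between them. In TTg_HF against Ctrl_HF the differences were 0.34 for Ifngr2 (adjusted p = 0.127) and 0.35 for Il10rb (adjusted p = 0.203), which did not pass, and in TTg_HF against Ctrl the lowest p belonged to Il10rb at -0.29 and to Irf5 at 0.78 (adjusted p = 0.437 for both). The calls held in 14 of 16 alternatives for Ifngr2 and in 12 of 16 for Il10rb.

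None of the 6 tested negative regulators, of 7 listed, passed in any comparison. Socs3, a suppressor of cytokine receptor kinases, had 6.45, 6.32 and 3.75 CPM in TTg_HF, 18.8, 132 and 46.8 CPM in Ctrl_HF, and 5.44, 5.54 and 10.4 CPM in Ctrl. Its Ctrl_HF libraries were above all others and differed among themselves, with the highest level in replicate 2. In that library 8 members were lowest within the group, and it also stood apart on the first principal component of all tested genes. A link between Socs3 and the members was not tested. Socs3 differed by 3.20 in Ctrl_HF against Ctrl (SE 0.75, adjusted p = 0.0701) and by -3.58 in TTg_HF against Ctrl_HF (SE 0.77, adjusted p = 0.136). Usp18, which removes Isg15 from proteins and blocks the type I receptor, differed by 0.92 in Ctrl_HF against Ctrl (adjusted p = 0.258) and by 0.76 in TTg_HF against Ctrl (adjusted p = 0.656). Ptpn2 differed by -0.48 in TTg_HF against Ctrl_HF (adjusted p = 0.302) and Ptpn6 by 0.82 in TTg_HF against Ctrl (adjusted p = 0.467).

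The Isg15 conjugation pathway has 5 listed genes, all tested, of which Trim25 alone passed, in Ctrl_HF against Ctrl. In that comparison 1.79% of all tested genes were called higher. Ube2l6, the conjugating enzyme, had 7.48, 7.48 and 9.38 CPM in TTg_HF, 12.05, 8.33 and 10.4 CPM in Ctrl_HF, and 6.43, 6.24 and 6.45 CPM in Ctrl. Its libraries in TTg_HF and Ctrl_HF were above those of Ctrl, with differences of 0.35 in TTg_HF against Ctrl (adjusted p = 0.619), 0.69 in Ctrl_HF against Ctrl (adjusted p = 0.0631) and -0.34 in TTg_HF against Ctrl_HF (adjusted p = 0.421). Trim25 differed by 0.23 in TTg_HF against Ctrl (adjusted p = 0.548) and by -0.28 in TTg_HF against Ctrl_HF (adjusted p = 0.260).

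Among 10 other OAS and IFIT genes 7 were tested and none passed. The lowest p belonged to Ifit1bl1 (-0.66, adjusted p = 0.148) and Ifit1bl2 (-0.68, adjusted p = 0.199) in Ctrl_HF against Ctrl, to Oas1a (0.70, adjusted p = 0.411) and Ifit1bl1 (0.39, adjusted p = 0.495) in TTg_HF against Ctrl_HF, and to Oas1a (0.75, adjusted p = 0.572) and Oasl1 (1.08, adjusted p = 0.572) in TTg_HF against Ctrl. These families hold close copies whose reads may be split between them. Ifit2, named after its values were seen as the remaining classical IFIT gene, had 14.1, 16.5 and 14.4 CPM in TTg_HF, 19.3, 6.43 and 9.73 CPM in Ctrl_HF, and 7.79, 11.8 and 13.1 CPM in Ctrl, the same order of the Ctrl_HF libraries as in Ifit1 and Ifit3.

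Of 45 other genes known to respond to type I interferon, 43 were tested. In Ctrl_HF against Ctrl 2 rose and 0 fell, beside 1.79% and 1.82% of all tested genes. Ifitm3, which blocks the entry of enveloped viruses, had 41.2, 48.3 and 50.3 CPM in TTg_HF, 61.8, 77.2 and 53.9 CPM in Ctrl_HF, and 32.999, 37.4 and 46.7 CPM in Ctrl, and rose by 0.72 in Ctrl_HF against Ctrl (adjusted p = 0.0347). Shisa5 had 39.1, 38.9 and 35.8 CPM in TTg_HF, 42.0, 48.0 and 44.5 CPM in Ctrl_HF, and 24.5, 31.5 and 34.0 CPM in Ctrl, and rose by 0.58 (adjusted p = 0.0298). Unlike most members, neither gene was highest in Ctrl_HF replicate 1, and each call held in 10 of 16 alternatives.

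No gene of this list passed in TTg_HF against Ctrl_HF or in TTg_HF against Ctrl. In TTg_HF against Ctrl 37 of the 43 were above 0 with a median of 0.34, and 18 lay wholly higher and 0 wholly lower, beside 9.23% and 9.48% of all genes. Lgals3bp, a secreted glycoprotein, was at the threshold, with 34.0, 35.1 and 35.3 CPM in TTg_HF, 35.5, 23.4 and 26.8 CPM in Ctrl_HF, and 15.0, 17.2 and 22.7 CPM in Ctrl, and a difference of 0.93 in TTg_HF against Ctrl (SE 0.18, adjusted p = 0.0504). Ifi27l2a had 7.33, 11.6 and 13.96 CPM in TTg_HF, 8.22, 4.83 and 8.80 CPM in Ctrl_HF, and 1.98, 3.12 and 4.46 CPM in Ctrl, and a difference of 1.78 (SE 0.34, adjusted p = 0.0538). In both genes every TTg_HF library and every Ctrl_HF library was above every Ctrl library. In TTg_HF against Ctrl_HF the lowest p belonged to Ddx60, a helicase that assists RIG-I, at 1.06 (adjusted p = 0.120) and to Slfn8 at 1.86 (adjusted p = 0.169).

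Genes responsive to interferon gamma were highest in Ctrl_HF replicate 1 and did not separate the groups. Of 33 listed, among them guanylate-binding proteins and genes of antigen presentation, 27 were tested and none passed in any comparison. Summed over the 33 genes, the level was 754, 827 and 773 CPM in TTg_HF, 1849.5, 644 and 565 CPM in Ctrl_HF, and 654, 707 and 880 CPM in Ctrl. The median was 0.48 in Ctrl_HF against Ctrl, with 23 of 27 above 0, -0.36 in TTg_HF against Ctrl_HF, with 3 of 27 above 0, and 0.17 in TTg_HF against Ctrl, with 19 of 27 above 0. The lowest p belonged to Psmb10 (0.45, adjusted p = 0.199) and Gbp4 (1.45, adjusted p = 0.339) in Ctrl_HF against Ctrl, to Gbp4 (-1.32, adjusted p = 0.477) and Igtp (-1.17, adjusted p = 0.490) in TTg_HF against Ctrl_HF, and to Tapbp (0.30, adjusted p = 0.691) and H2-T23 (1.12, adjusted p = 0.706) in TTg_HF against Ctrl. Gbp4 had 37.7 CPM in Ctrl_HF replicate 1 and 3.09 to 9.97 CPM in the other 8 libraries.

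**Figure D3:**
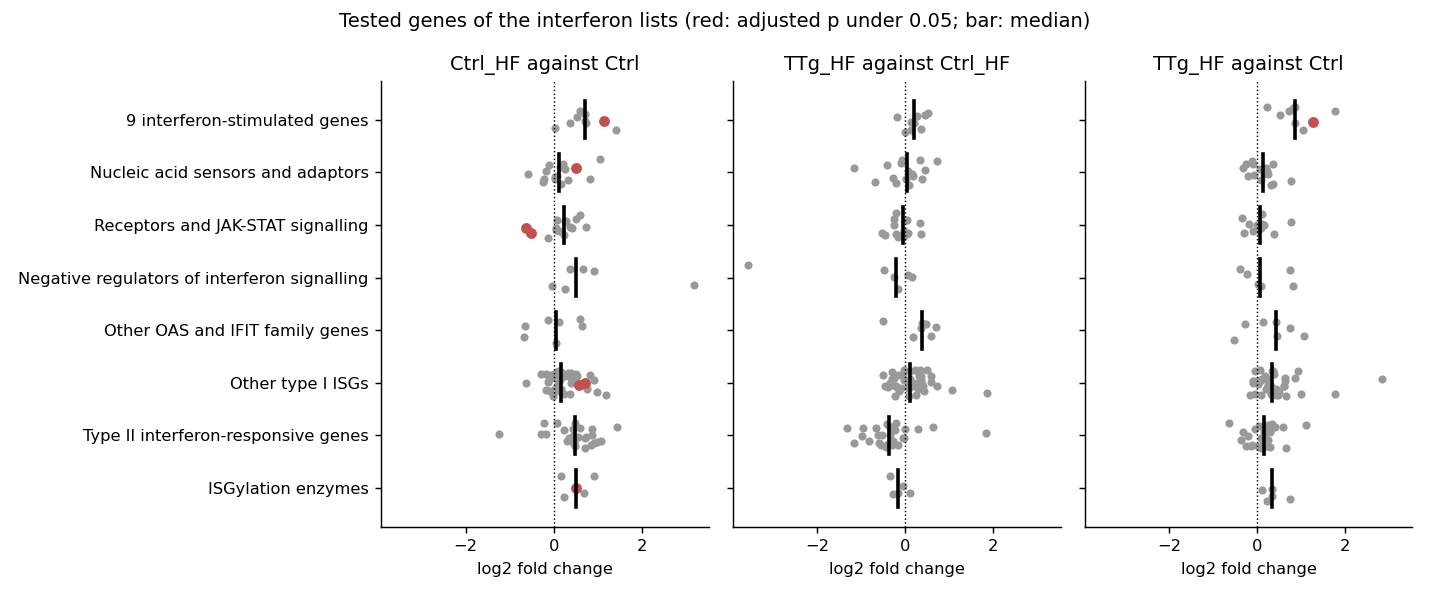
Fitted log2 fold change (x axis) of each tested gene of the 9 members and of 7 lists of the interferon pathway (rows) in the 3 comparisons, where each point is a gene, red marks an adjusted p under 0.05 and the bar is the median of the list. Red points in Ctrl_HF against Ctrl are Oas2, Trim25 in both of its lists, Ifngr2, Il10rb, Ifitm3 and Shisa5, the only red point in TTg_HF against Ctrl is Oas2, and TTg_HF against Ctrl_HF has none.

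Markers of cell types that carry interferon responses moved with the members in part, and in whole tissue more cells of a type and more RNA per cell cannot be told apart. The 14 macrophage and monocyte markers, all of them detected, summed to 399 to 458 CPM in TTg_HF, 407 to 537 CPM in Ctrl_HF and 299 to 368 CPM in Ctrl, with no overlap between Ctrl and the other groups. In Ctrl_HF against Ctrl 3 of the 14 rose, namely Mrc1 by 0.84 (adjusted p = 0.00680), C1qb by 0.62 (adjusted p = 0.0221) and Ccr2 by 1.52 (adjusted p = 0.0303), and in TTg_HF against Ctrl 1 did, Mrc1 by 0.61 (adjusted p = 0.0455). Of all tested genes 1.79% and 0.284% were called higher in these comparisons. All 14 markers were above 0 in Ctrl_HF against Ctrl, and 13 were in TTg_HF against Ctrl, where the lowest stood at -1.56. Between TTg_HF and Ctrl_HF 4 of the 14 were above 0, the lowest stood at -1.61 and none passed. In Ctrl_HF against Ctrl the calls held in 16 of 16 alternatives for Mrc1, 12 for C1qb and 10 for Ccr2. In TTg_HF against Ctrl the call of Mrc1 held in 8 of 16, with an adjusted p of 0.0710 with the replicate block and of up to 0.217 without single libraries, where it held only without Ctrl_HF replicate 1 or replicate 2. Fibroblast markers, 10 genes, summed to 2659 to 2987 CPM in TTg_HF, 2345 to 3278 CPM in Ctrl_HF and 2076 to 2211 CPM in Ctrl, and none of the 10 passed. Ctrl_HF replicate 1 had the highest sum of both lists. It was not the highest for the 10 endothelial markers, which summed to 1347 to 1613 CPM in TTg_HF, 1483 to 1602 CPM in Ctrl_HF and 1312 to 1505 CPM in Ctrl, and none of which passed. In TTg_HF against Ctrl 0 of the 10 cardiomyocyte markers were above 0, and 9 were lower with an unadjusted p under 0.05. In Ctrl_HF against Ctrl 1 was above 0, and 6 were lower with such a p. Wholly lower in these comparisons were 6 and 5 of them, beside 9.48% and 11.8% of all genes. After adjustment Myl3, a myosin light chain, alone passed, where 0.182% and 1.82% of all genes were called lower. Myl3 fell by 0.42 in TTg_HF against Ctrl (adjusted p = 0.0334, held in 9 of 16 alternatives) and by 0.41 in Ctrl_HF against Ctrl (adjusted p = 0.0159, held in 12 of 16).

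The 10 T and NK cell markers were near the limit of detection and none was tested, with sums of 2.05 to 2.74 CPM in TTg_HF, 1.04 to 8.90 CPM in Ctrl_HF and 2.46 to 3.21 CPM in Ctrl. The highest sum was again that of Ctrl_HF replicate 1. Of the neutrophil markers Ly6g had no count in any library, and of the plasmacytoid dendritic cell markers Ccr9 had none. Of the 5 plasmacytoid dendritic cell markers 1 was tested and did not pass. They summed to 192 to 247 CPM in TTg_HF, 187 to 212 CPM in Ctrl_HF and 209 to 219 CPM in Ctrl, lowest in Ctrl_HF replicate 1. Neutrophil markers summed to 2.35 to 4.84 CPM in TTg_HF, 10.4 to 12.9 CPM in Ctrl_HF and 2.81 to 7.42 CPM in Ctrl, an order that the members did not follow. The 6 B cell markers, of which Ighm alone was tested and did not pass, summed to 7.97 to 10.7 CPM in TTg_HF, 3.01 to 8.08 CPM in Ctrl_HF and 5.93 to 10.9 CPM in Ctrl. Neither the neutrophil nor the B cell sum was highest in Ctrl_HF replicate 1. The part of any of these cell types in the members' levels was not tested.

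**Figure D4:**
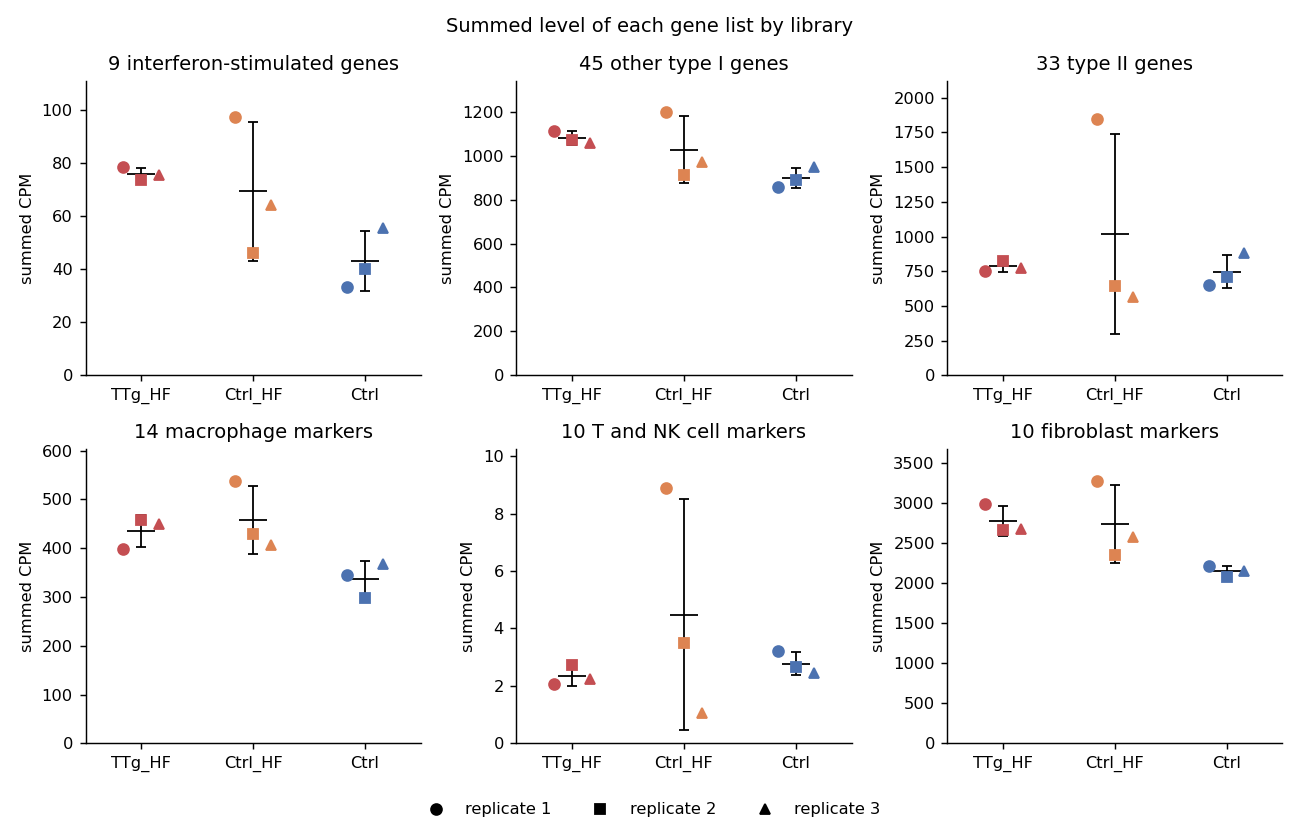
Summed CPM per library (y axes, from 0) of the 9 members, of 2 other interferon-responsive lists and of 3 lists of cell type markers in TTg_HF, Ctrl_HF and Ctrl (x axis), where symbols mark the replicate number and the black bars the mean and SD of 3 libraries. Ctrl_HF replicate 1 is the highest library in these 6 panels, at 97.6 CPM for the members and 1849.5 CPM for the genes responsive to interferon gamma, and is not the highest for endothelial, neutrophil or B cell markers, which are not plotted.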

How the data were processed

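Whole-ventricle RNA was depleted of ribosomal RNA and made into directional libraries, per the labels' protocols. The deposited table gives 3 values per gene and library. The first is a whole-number count per gene (expression values, per the file headers), and all tests used these counts. The second is a signal the authors called normalized values. For counts over 500 it equals the count multiplied by a library's own factor to within 1.08e-04 of its size, and these factors served as an alternative scaling. The third is a log2 value, which the authors computed as log2 of the signal plus 1 within 0.005, and it was not used further. Per the submitters' processing notes the build was mm10. Aligner, counting tool, strand setting and gene annotation: not given in the sources used here, so reads of overlapping genes could not be separated.

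The 9 libraries were fitted together with edgeR 4.0.16 (R 4.3.3, limma 3.58.1), with group as the only term, TMM scaling, robust quasi-likelihood estimation and filterByExpr (min.count 10, min.total.count 15). Of each library's counts at least 99.85% fell in the 12670 genes kept, with a median biological coefficient of variation of 0.131. Tests were two-sided quasi-likelihood F tests with Benjamini-Hochberg adjustment over all genes kept and a threshold of 0.05. The SE was taken as the size of the log2 fold change over the root of F, and 95% intervals used the moderated degrees of freedom. With 3 libraries a group a permutation p has a floor of 0.1, so none was computed. The test was checked on data simulated with the same spread in all groups, a check that does not cover groups of unequal spread. Alternatives were RLE scaling, the authors' factors, no filter, a CPM filter, DESeq2 1.42.0, the 2 groups compared alone, a replicate block and the omission of each library.

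The 9 genes, the gene lists and the tests were chosen with earlier results of these data known. All members were named. From each other list of the interferon pathway, genes past the threshold were named (at most 6), otherwise the 2 of lowest p. Marker lists were described by their sums, and single marker genes were picked with their values known. The most similar genes were the 10 with the highest Pearson correlation of log2 CPM (prior count 2) with the mean z-score of the members. Counts of libraries that do not overlap and the alternatives for genes of other lists were added after the data were seen. Gene positions and exon lengths came from GENCODE vM21 (GRCm38, the assembly of mm10), and promoter windows from RefSeq (GRCm38.p6). Figures were drawn with Python 3.11.15, pandas 2.3.3 and matplotlib 3.10.9.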

Additional observations from a re-analysis of the deposited data

How the results depend on the processing

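All values below are log2 fold changes or counts under 16 alternative settings, of which 9 leave out 1 library. The number of all genes called in Ctrl_HF against Ctrl was 458, and it was 841 with DESeq2, 126 with only the 2 groups compared and 85 to 1122 when single libraries were left out. In TTg_HF against Ctrl it was 59, and 118 without a filter, 182 with DESeq2, 117 with only the 2 groups and 24 to 114 without single libraries. In TTg_HF against Ctrl_HF it was 11, and 109 without a filter, 339 with DESeq2, 0 with only the 2 groups (where edgeR found no adjusted p under 0.05) and 2 to 665 without single libraries. Members called numbered 2 with DESeq2 in Ctrl_HF against Ctrl, Oas2 and Irf9, and 0 to 1 in each of the 3 comparisons without single libraries. In the main fit all 3 groups share 1 estimate of the spread, so that of Ctrl_HF also enters TTg_HF against Ctrl. There no member but Oas2 passed in any alternative. Their lowest adjusted p over the 16 settings lay between 0.0599 for Irf7 and 0.579 for Bst2, with Oasl2 at 0.0922. The members' median without single libraries was 0.071 to 0.911 in Ctrl_HF against Ctrl, 0.00126 to 0.702 in TTg_HF against Ctrl_HF and 0.594 to 1.11 in TTg_HF against Ctrl, and the members that lay wholly higher numbered 2 to 5, 1 to 6 and 8 to 9. Directions turned for 7 of the members' differences, none of them called in the main fit. Ifit1 in TTg_HF against Ctrl_HF was 0.0131 with the authors' factors, 0.0992 with the replicate block and -0.367 to 0.702 without single libraries. Without single libraries, the range was -0.283 to 0.837 for Ifit3, -0.0492 to 0.952 for Irf7 and -0.333 to 0.0440 for Irf9 in TTg_HF against Ctrl_HF, -0.242 to 0.476 for Bst2 and -0.0896 to 0.911 for Irf7 in Ctrl_HF against Ctrl, and -0.0248 to 0.680 for Bst2 in TTg_HF against Ctrl. The cause of these shifts was not tested.

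Libraries of different groups share replicate numbers. The deviations of the 9 same-number pairs correlated at -0.164 to 0.197, other pairs at -0.191 to 0.167, and 6 of 18 comparisons had the own number as the best, so the numbers were not taken as pairing. A fit with the replicate block called 415 genes in Ctrl_HF against Ctrl, 52 in TTg_HF against Ctrl and 12 in TTg_HF against Ctrl_HF, and it left every call of a member as it was, with Oas2 at 1.14 and 1.28 in the comparisons with Ctrl.

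With 3 libraries a group and 4 to 193 counts per member and library, the intervals are wide, and a member that did not pass is not shown to be unchanged.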
